A study of Mus musculus with 11 samples.

Results

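The 10 genes described here are markers of meningeal fibroblasts that do not encode collagens: Dcn, Lum, Ogn, Fmod, Slc6a13, Slc22a6, Fap, Pcolce, Frem1 and Ptgds. They were chosen by symbol from the 54532 genes of a count table of dissected mouse lateral habenula, and all 10 were among the 19619 genes with enough reads to be tested. Every mouse was BALB/c and 3 months old. CAIA (collagen antibody-induced arthritis) mice received a cocktail of 5 monoclonal antibodies to type II collagen (50 mg/kg, intraperitoneal) and, 3 days later, lipopolysaccharide (LPS, 1 mg/kg). Control mice received vehicle, so arthritis, antibody and LPS cannot be told apart. There were 3 female control, 3 female CAIA, 2 male control (replicates 1 and 3) and 3 male CAIA libraries. The labels do not tie libraries to separate animals, so the p-values weigh group differences against a spread between libraries that may be technical.

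The meninges are the membranes around the brain, and their fibroblasts build the collagen-rich matrix and the basement membrane that cover its surface. Fibroblasts of the same kind continue along larger vessels and into the stroma of the choroid plexus, the secretory tissue of the ventricles that lies beside the habenula. The small leucine-rich proteoglycans decorin (Dcn), lumican (Lum), osteoglycin (Ogn) and fibromodulin (Fmod) bind collagen and shape its fibrils. Procollagen C-endopeptidase enhancer (Pcolce) speeds the enzymatic trimming of procollagen, Frem1 belongs to an extracellular complex that anchors basement membranes, and fibroblast activation protein (Fap) is a cell-surface serine protease. Slc6a13 encodes a GABA and taurine transporter, Slc22a6 the organic anion transporter OAT1, and Ptgds the lipocalin-type prostaglandin D2 synthase, which oligodendrocytes and choroid plexus epithelium make too. Ttr (transthyretin), the carrier protein that choroid plexus epithelium secretes in bulk, served as the reference gene for the agreement between libraries.

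Library totals ran from 25317306 to 29565006 counts. The defining lateral habenula markers were present in all libraries, with a summed level of 1267 to 1559 CPM (CPM, the reads of a gene relative to the TMM-scaled library size) and no marker at 0. The summed level of 14 choroid plexus epithelium markers was 2723 to 5654 CPM in female controls, 4268 to 4506 in male controls, 250.9 to 273.1 in female CAIA and 289.3 to 2130 in male CAIA. The value of 2130 CPM was that of male CAIA library 2, which stood apart from the other CAIA libraries, so the male values are given with and without it. No choroid plexus marker was at 0 in any library. The summed levels of oligodendrocyte, endothelial, mural and ependymal markers overlapped between CAIA and control in both sexes, and no gene of these lists passed the test over both sexes. Medial habenula markers overlapped in females and were at 1453 to 1503 CPM in male controls against 1314 to 1407 in male CAIA, also with no gene past the threshold. In bulk tissue, fewer cells of a type and less RNA per cell cannot be told apart.

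Per kilobase of exon, Ptgds was by far the most abundant of the 10 genes in the 5 control libraries, at 262.0 ± 34.4 CPM per kb (mean ± SD, n = 5, both sexes). Pcolce followed at 6.05 ± 0.73 CPM per kb, then Dcn at 3.05 ± 0.82 and Fmod at 2.76 ± 0.65. Lum (2.05 ± 0.72), Ogn (2.00 ± 0.66) and Slc6a13 (1.75 ± 0.41) had levels per kb that did not differ beyond their spread. Slc22a6 was at 1.30 ± 0.28, Frem1 at 0.887 ± 0.215 and Fap at 0.575 ± 0.181 CPM per kb. Dcn and Fmod also lay within each other's spread, and the gaps from Ptgds to Pcolce and from Pcolce to Dcn were larger than the spread.

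The genes are scattered over the genome (GRCm38, GENCODE M21), except that Dcn (chr10:97479609-97518143) and Lum (chr10:97565128-97572703) are neighbours on the plus strand. Fap lies at chr2:62500943-62574075, Pcolce at chr5:137605103-137613784 and Frem1, which spans 154.4 kb, at chr4:82897920-83052339. Ogn (chr13:49608046-49624501) lies across an intron of the antisense gene Cenpp and shares no exon base with it. Pcolce shares 112 exon bases with Fbxo24 on the same strand and with the antisense gene Gm36266, and reads from that stretch cannot be assigned with certainty.

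RefSeq promoter windows (250 bases before a transcript start, GRCm38.p6) were found for 7 of the 10 genes, and 4 windows are shown. They are 1 of the 2 of Frem1, a gene that fell in CAIA, and 1 each of 3 genes that did not pass. These are the proteoglycan gene Ogn and the transporter genes Slc22a6 and Slc6a13. The windows are at chr4:83021103-83021352 (minus strand, before an internal start of Frem1), chr13:49607765-49608014 (plus), chr19:8617746-8617995 (plus) and chr6:121300490-121300739 (plus, the second of 3 starts of Slc6a13). None of these 4 windows overlaps an annotated exon. The other Frem1 window, at the 5' end of the gene (chr4:83052167-83052416), overlaps 173 annotated exon bases and is not shown. Capitals mark matches to the motifs searched, on either strand.
Frem1: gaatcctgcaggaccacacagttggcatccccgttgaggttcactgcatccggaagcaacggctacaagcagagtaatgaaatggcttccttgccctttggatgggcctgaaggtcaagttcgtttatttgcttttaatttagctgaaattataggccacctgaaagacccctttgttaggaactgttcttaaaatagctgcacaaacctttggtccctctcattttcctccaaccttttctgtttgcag
Ogn: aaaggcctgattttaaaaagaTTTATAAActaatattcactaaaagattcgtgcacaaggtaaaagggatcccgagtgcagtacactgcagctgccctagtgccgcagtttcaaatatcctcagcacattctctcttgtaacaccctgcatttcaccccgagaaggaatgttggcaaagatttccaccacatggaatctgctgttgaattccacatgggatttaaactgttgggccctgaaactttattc
Slc22a6: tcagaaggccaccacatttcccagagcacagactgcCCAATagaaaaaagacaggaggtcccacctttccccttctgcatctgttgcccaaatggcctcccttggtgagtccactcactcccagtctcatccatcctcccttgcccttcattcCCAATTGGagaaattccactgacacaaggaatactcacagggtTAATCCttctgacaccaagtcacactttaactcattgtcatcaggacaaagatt
Slc6a13: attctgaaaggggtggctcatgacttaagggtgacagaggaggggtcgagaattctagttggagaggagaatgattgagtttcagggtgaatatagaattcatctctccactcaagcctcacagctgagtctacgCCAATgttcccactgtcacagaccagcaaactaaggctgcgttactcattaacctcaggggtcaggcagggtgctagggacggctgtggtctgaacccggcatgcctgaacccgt

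The letters of the TATA box (TATAAA) were found in the Ogn window and in 12.4% of all 32841 RefSeq promoter windows of this length. The Ogn matches overlapped, at 227 to 222 bases before the start on the same strand and 229 to 224 on the opposite strand. The CCAAT box (CCAAT) was found in the windows of Slc22a6 and Slc6a13 and in 33.9% of all windows. The core bound by OTX homeodomain factors (TAATCC) was found 54 to 49 bases before the Slc22a6 start, in the first of the 3 Slc6a13 windows, which is not shown, and in 6.25% of all windows. The GC box (GGGCGG) was found in the Pcolce window and the first Slc6a13 window, neither of them shown, and in 32.7% of all windows. The forkhead core (TGTTTAC) was in none of the 7 genes' windows and in 3.17% of all windows. The GC content of the 4 windows shown was 45.6% for the internal Frem1 start, 42% for Ogn, 48.4% for Slc22a6 and 51.6% for Slc6a13. The median over all windows was 52.4%. Windows not shown had 56.8% (the second Frem1 start), 60.8% (the first Slc6a13 start), 58.8% (Pcolce) and 58.4% (Ptgds).

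**Figure D1:**
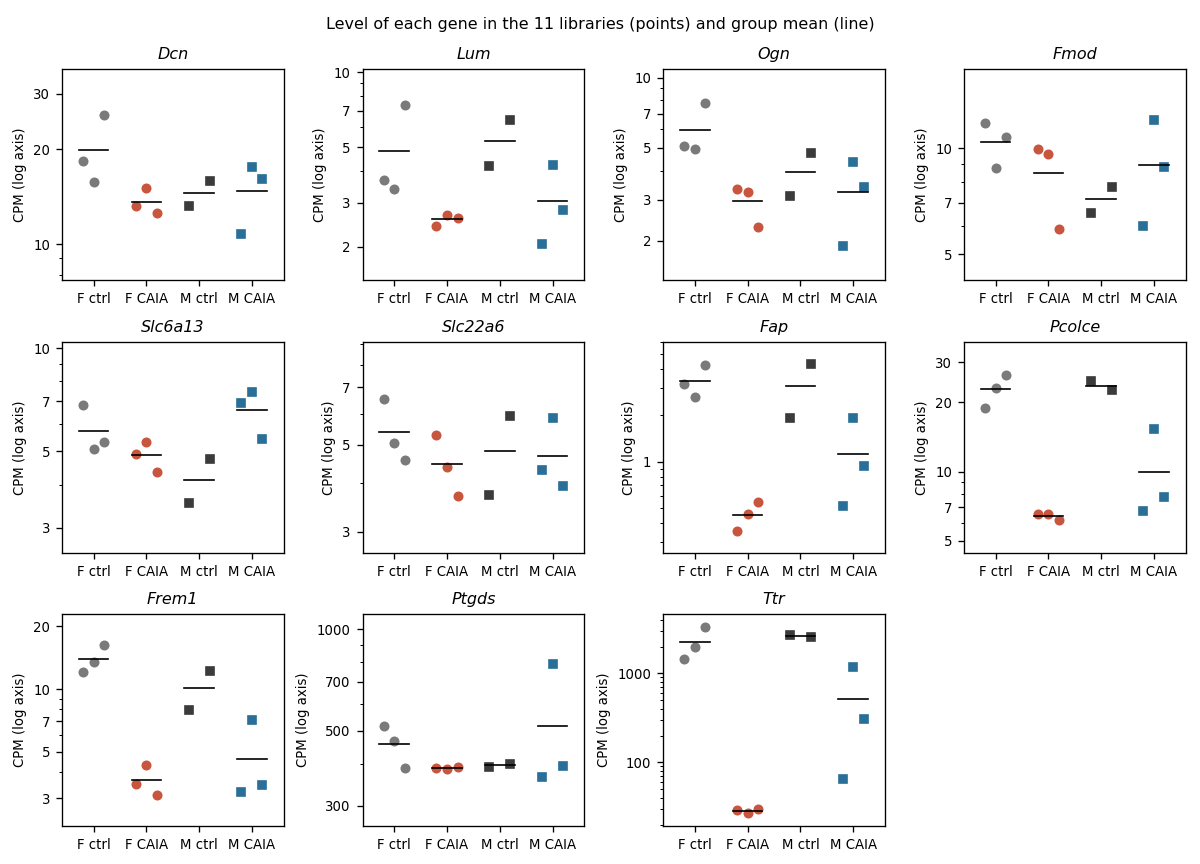
Level of each of the 10 genes and of Ttr in the 11 libraries, in CPM on a log axis, with 1 panel per gene. Points are libraries (circles female, squares male) and lines are group means. Pcolce and Frem1 lie lower in all 6 CAIA libraries than in all 5 controls, whereas CAIA and control overlap for the other 8 of the 10 genes when the sexes are pooled.

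Over both sexes with equal weight, 3 of the 10 genes were lower in CAIA habenula: the protease gene Fap (4.51-fold), the procollagen enhancer gene Pcolce (2.91-fold) and the basement membrane gene Frem1 (2.90-fold). None was higher. The share of all tested genes that passed was 0.576% for lower and 0.0204% for higher in CAIA. The 4 proteoglycan genes, both transporter genes and Ptgds did not pass. The median log2 fold change of the 10 genes was -0.46, against 0.0002 over all tested genes. Values were below 0 in 7 of the 10 genes and in 50% of all tested genes.

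Fap was at 3.19, 2.63 and 4.22 CPM in the 3 female controls and at 0.356, 0.453 and 0.550 CPM in the 3 female CAIA libraries. In males it was at 1.92 and 4.31 CPM in controls and at 0.513, 1.92 and 0.934 CPM in CAIA. The female groups were far apart, whereas male CAIA 2 reached the level of male control 1, so the male groups overlapped. The log2 fold change over both sexes was -2.17 ± 0.32 (SE, adjusted p = 0.00728). Fap was also the least abundant of the genes, with 10 to 16 counts per female CAIA library and 67 to 124 per female control library.

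Pcolce was at 18.9, 23.2 and 26.3 CPM in female controls and at 6.51, 6.52 and 6.18 CPM in female CAIA. The male controls were at 24.7 and 22.6 CPM and the male CAIA libraries at 6.71, 15.3 and 7.76 CPM. All 6 CAIA libraries lay below all 5 controls, and 5 of them lay between 6.18 and 7.76 CPM while male CAIA 2 lay between them and the controls. The log2 fold change was -1.54 ± 0.19 (adjusted p = 0.00631). Without male control 1 the fold change was -1.52 and its adjusted p was 0.0579, which lost the call at the threshold of 0.05.

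Frem1 was at 12.1, 13.4 and 16.3 CPM in female controls and at 3.52, 4.33 and 3.09 CPM in female CAIA. In males it was at 7.94 and 12.3 CPM in controls and at 3.20, 7.15 and 3.45 CPM in CAIA. The CAIA and control libraries again did not overlap, with male CAIA 2 the highest CAIA library. The log2 fold change was -1.54 ± 0.21 (adjusted p = 0.00708). Of the 10 genes, only Pcolce and Frem1 had all 6 CAIA libraries below all 5 controls, a pattern that 1.01% of all tested genes showed.

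Choroid plexus markers moved in the same libraries: all 14 had negative log2 fold changes, with a median of -2.48, and 7 passed. Ttr itself was at 1469 to 3289 CPM in controls and at 27.0 to 1188 CPM in CAIA, and its log2 fold change of -4.32 ± 0.71 had an adjusted p of 0.0620. With the Ttr level as a covariate the fold changes shrank. They were then -0.16 ± 0.67 for Fap, -0.20 ± 0.25 for Pcolce and -0.24 ± 0.40 for Frem1, and none passed. No other tested gene passed with that covariate either, so the loss of the calls was not particular to Fap, Pcolce and Frem1. Because the Ttr levels of CAIA and control libraries did not overlap, the Ttr level and the treatment cannot be told apart in that fit. Without male CAIA 2 the falls were larger, at -2.49 ± 0.29 for Fap, -1.78 ± 0.10 for Pcolce and -1.78 ± 0.16 for Frem1. With each library left out, values ranged from -2.49 to -1.81 for Fap, -1.78 to -1.44 for Pcolce and -1.78 to -1.35 for Frem1.

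Among the proteoglycan genes, Lum had the lowest value over both sexes, at -0.86 ± 0.23, and did not pass in edgeR (adjusted p = 0.216). DESeq2 called it (adjusted p = 0.0296). Lum was at 3.70, 3.42 and 7.36 CPM in female controls, 2.42, 2.69 and 2.61 CPM in female CAIA, 4.22 and 6.40 CPM in male controls and 2.05, 4.24 and 2.80 CPM in male CAIA. The female groups did not overlap, and in males only male CAIA 2 reached the lower control.

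Ogn was at 5.10, 4.95 and 7.80 CPM in female controls, 3.34, 3.24 and 2.30 CPM in female CAIA, 3.12 and 4.74 CPM in male controls and 1.89, 4.36 and 3.41 CPM in male CAIA. The groups were apart in females and overlapped in males. Its log2 fold change over both sexes was -0.65 ± 0.22 (adjusted p = 0.453).

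Dcn, whose product decorates collagen fibrils, was at 18.4, 15.7 and 25.7 CPM in female controls and at 13.2, 15.0 and 12.6 CPM in female CAIA. In males it was at 13.2 and 15.8 CPM in controls and 10.7, 17.5 and 16.1 CPM in CAIA. The lowest female control lay just above the highest female CAIA library, and the male groups overlapped. The fold change over both sexes was -0.26 ± 0.15 (log2, adjusted p = 0.860).

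Fmod was at 11.8, 8.80 and 10.8 CPM in female controls, 9.96, 9.66 and 5.91 CPM in female CAIA, 6.55 and 7.78 CPM in male controls and 6.04, 12.0 and 8.84 CPM in male CAIA. Its groups overlapped in both sexes. The log2 fold change of 0.01 ± 0.18 left an interval of -0.35 to 0.38 (2 SE either side).

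Slc6a13 was at 6.81, 5.07 and 5.31 CPM in female controls and at 4.91, 5.34 and 4.36 CPM in female CAIA, ranges that overlapped. In males it was at 3.54 and 4.74 CPM in controls and at 6.91, 7.46 and 5.43 CPM in CAIA, so that every CAIA library was above both controls. It was the only gene of the 10 with that pattern in males, which 9.18% of all tested genes showed. The male log2 fold change was 0.67 ± 0.21 (adjusted p = 0.640), and over both sexes it was 0.22 ± 0.14 (adjusted p = 0.881).

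Slc22a6 was at 6.54, 5.07 and 4.56 CPM in female controls, 5.30, 4.40 and 3.71 CPM in female CAIA, 3.73 and 5.93 CPM in male controls and 4.30, 5.85 and 3.92 CPM in male CAIA. The groups overlapped in both sexes, and the log2 fold change of -0.16 ± 0.17 had an interval of -0.49 to 0.18.

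Ptgds was at 516, 466 and 387 CPM in female controls, 389, 386 and 392 CPM in female CAIA and 392 and 399 CPM in male controls. Male CAIA libraries 1 and 3 were at 366 and 394 CPM, and male CAIA 2 was at 791 CPM, above all 10 others. The log2 fold change was 0.08 ± 0.19 with all libraries and -0.15 ± 0.08 without male CAIA 2, and neither passed.

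**Figure D2:**
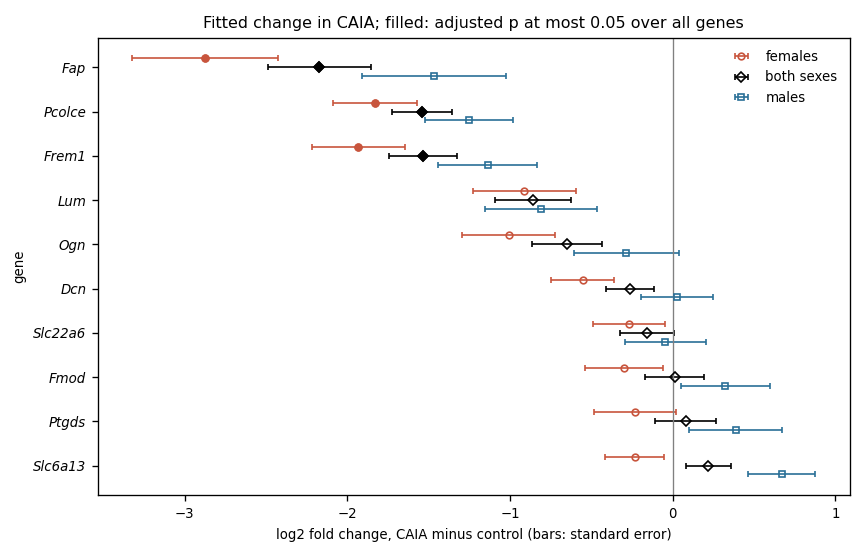
Fitted log2 fold change of CAIA minus control for the 10 genes in females (circles), both sexes (diamonds) and males (squares), with standard errors as bars. Filled symbols passed the adjusted p threshold of 0.05 over all genes. Fap, Pcolce and Frem1 are filled in females and over both sexes, and no gene is filled in males.

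In females, Fap (-2.87 ± 0.45, adjusted p = 0.0236), Frem1 (-1.93 ± 0.28, adjusted p = 0.0226) and Pcolce (-1.83 ± 0.26, adjusted p = 0.0226) fell, against 0.255% of all genes that passed as lower. All 10 log2 fold changes were below 0, with a median of -0.73, and 50.4% of all genes had values below 0. After the 3 called genes, the lowest were Ogn (-1.01 ± 0.29), Lum (-0.91 ± 0.31) and Dcn (-0.55 ± 0.19), and the other 4 lay between -0.30 and -0.23. In 6 of the 10 genes (Dcn, Lum, Ogn, Fap, Pcolce and Frem1) every female CAIA library was below every female control, a pattern found in 6.39% of all genes. The 3 calls were lost when female control 3 or any 1 female CAIA library was left out, with fold changes of -3.04 to -2.67 for Fap, -1.85 to -1.72 for Pcolce and -2.08 to -1.81 for Frem1. Adjusted p-values were then 0.0988 to 0.235. Of all genes, 1 passed without female control 3 and 0 without any 1 female CAIA library, against 51 with all libraries. The Pcolce call alone was also lost without male control 1 or 3, with adjusted p-values of 0.0672 and 0.0620.

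In males, none of the 10 genes passed and 0% of all genes did, with a smallest adjusted p of 0.167. At an unadjusted p under 0.05 there were 5 of the 10 genes and 1104 of all genes. The values were -1.47 ± 0.44 for Fap, -1.25 ± 0.27 for Pcolce and -1.14 ± 0.31 for Frem1. DESeq2 called Pcolce and Frem1 in males among 71 genes in all. Without male CAIA 2, edgeR called both among 36 genes, at -1.71 ± 0.16 (Pcolce, adjusted p = 0.000725) and -1.61 ± 0.24 (Frem1, adjusted p = 0.0183), and Fap was at -2.10 ± 0.44 (adjusted p = 0.118). With each library left out, male values ranged from -2.10 to -0.76 for Fap, -1.71 to -1.04 for Pcolce and -1.61 to -0.78 for Frem1. Pcolce and Frem1 were also lower in all 3 male CAIA libraries than in both male controls, as were 8.51% of all genes. Lum was at -0.81 ± 0.34, Ogn at -0.29 ± 0.32, Slc22a6 at -0.05 ± 0.25, Dcn at 0.03 ± 0.22, Fmod at 0.32 ± 0.27 and Ptgds at 0.39 ± 0.29. Without male CAIA 2 these 6 were at -1.14 ± 0.36 for Lum, -0.57 ± 0.34 for Ogn, -0.24 ± 0.27 for Slc22a6, -0.12 ± 0.23 for Dcn, 0.048 ± 0.26 for Fmod and -0.066 ± 0.13 for Ptgds, and Slc6a13 was at 0.56 ± 0.23. The signs of Dcn and Ptgds thus turned, and none of these 7 genes passed.

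The difference between the female and the male effect was tested as an interaction, and none of the 10 genes passed (0% of all genes). At an unadjusted p under 0.05 there were 807 of all genes and 2 of the 10, Slc6a13 (-0.90 ± 0.28, female minus male log2 fold change, adjusted p = 0.978) and Fap (-1.40 ± 0.64, adjusted p = 0.978). The differences were -0.79 ± 0.42 for Frem1 and -0.58 ± 0.38 for Pcolce. Without male CAIA 2 they were -0.33 ± 0.31 and -0.13 ± 0.20, that for Fap was -0.78 ± 0.58 and that for Slc6a13 was -0.81 ± 0.29. All 10 differences had a negative sign with the full set of libraries, as did 52% of all genes. Male CAIA 2 was the highest male CAIA library for each of the 10 genes, so the 10 signs are not independent. In the comparison of all female with all male libraries none of the 10 genes passed, against 0.0459% of all genes, and none had an unadjusted p under 0.05.

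The agreement with Ttr was measured within groups, as the slope of each gene on the log2 CPM of Ttr after treatment and sex had been taken out by the 4 group means. The Pcolce slope was 0.29 ± 0.05 log2 units per log2 unit of Ttr and passed (adjusted p = 0.0425). This share of 1 in 10 stood beside 0.117% of all genes with a positive slope that passed. The other slopes did not pass: 0.45 ± 0.13 for Fap, 0.31 ± 0.10 for Lum, 0.31 ± 0.09 for Ogn, 0.28 ± 0.08 for Frem1, 0.22 ± 0.06 for Ptgds, 0.21 ± 0.08 for Fmod and 0.19 ± 0.06 for Dcn. These 7 and Pcolce had unadjusted p-values under 0.05, as did 682 of all 19618 genes in this fit. The transporter genes had slopes of 0.06 ± 0.09 (Slc22a6) and -0.00054 ± 0.072 (Slc6a13).

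**Figure D3:**
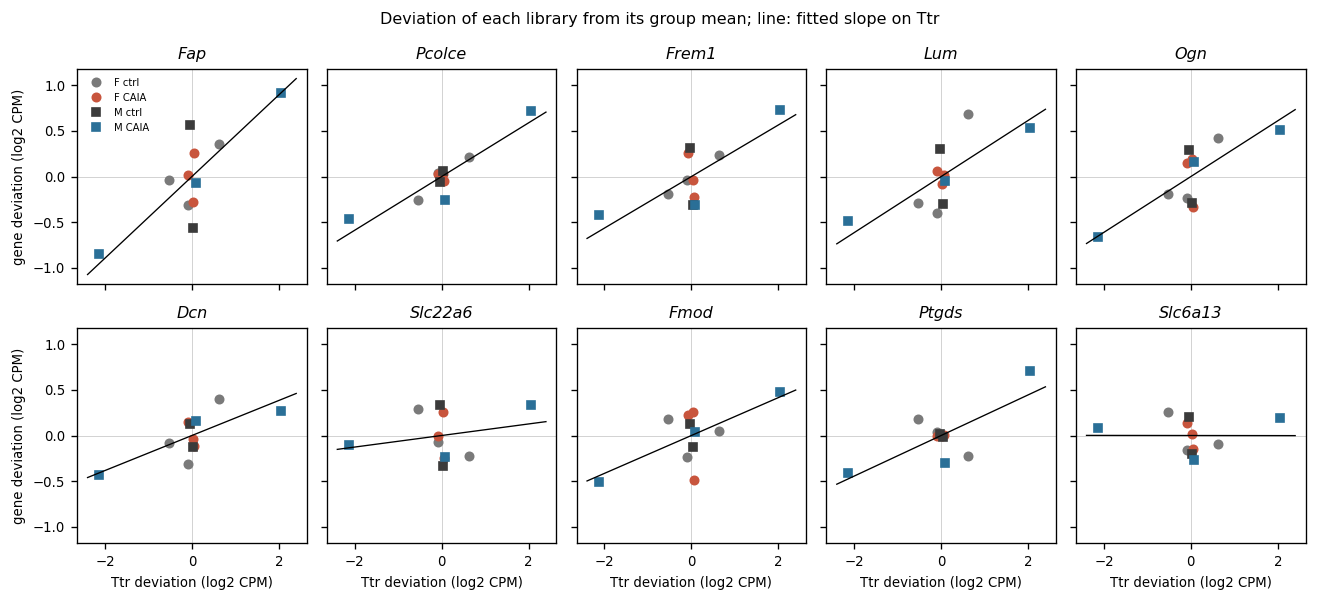
Deviation of each library from its group mean, in log2 CPM, for Ttr (x axis) and for each of the 10 genes (y axis), with the fitted slope as a line. Points are libraries, coloured by group. Male CAIA 1 (-2.13) and male CAIA 2 (2.05) are the libraries farthest from 0 on the Ttr axis, and the lines range from a slope of -0.00054 for Slc6a13 to 0.45 for Fap.

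The slopes rested on few libraries. In male CAIA, Ttr was at 65.6, 1188 and 305 CPM in libraries 1, 2 and 3, and 8 of the 10 genes had the same order over these 3 libraries, against 16.1% of all genes. The exceptions were the transporter genes, Slc22a6 with its lowest value in male CAIA 3 and Slc6a13 likewise. In female controls, Ttr was at 1469, 1996 and 3289 CPM in libraries 1, 2 and 3, and Pcolce and Frem1 kept that order, as did 22.0% of all genes. The Ttr deviations of the other 2 groups lay between -0.0845 and 0.0580 log2 units, so the slopes took little from them.

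The Pcolce call was lost with limma-voom (slope 0.31 ± 0.06, adjusted p = 0.110) and with the pineal marker level added (0.30 ± 0.05, adjusted p = 0.0571). It was also lost with the replicate number as a block (0.29 ± 0.06, adjusted p = 0.637) and when any 1 library other than male CAIA 3 was left out. Its slope was 0.47 ± 0.08 (adjusted p = 0.135) without male CAIA 1 and 0.17 ± 0.08 (adjusted p = 0.824) without male CAIA 2, and 0.28 to 0.30 with adjusted p-values of 0.0227 to 0.122 without any 1 of the others. With the mean log2 CPM of the choroid plexus markers other than Ttr in place of Ttr, the Pcolce slope was 0.51 ± 0.08 (adjusted p = 0.0167). Without male CAIA 2 the slope for Ptgds was -0.04 ± 0.07 and that for Frem1 0.12 ± 0.14, whereas those of Lum (0.38 ± 0.18), Ogn (0.42 ± 0.16) and Dcn (0.30 ± 0.10) were larger than with all libraries. The others were then 0.38 ± 0.24 for Fap, 0.16 ± 0.15 for Fmod, -0.15 ± 0.15 for Slc22a6 and -0.19 ± 0.11 for Slc6a13. The mean deviation of the 10 genes was -0.42 in male CAIA 1 and 0.54 in male CAIA 2.

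Some of the other fibroblast genes passed over both sexes. The share of all tested genes that passed as lower, for comparison with each list below, was 0.576%. Of 34 other meningeal fibroblast genes tested, 3 fell: Igf2 (-1.35 ± 0.26), a growth factor, Igfbp2 (-1.10 ± 0.16), which binds insulin-like growth factors, and Bmp6 (-0.38 ± 0.08), a signalling ligand. Their median was -0.19. Igfbp2 was at 72.8 ± 6.77 CPM in controls (n = 5) and 34.5 ± 11.3 CPM in CAIA (n = 6). Igf2 and Igfbp2 are also known products of the choroid plexus. Of 16 collagens of fibroblasts, Col8a2 (-0.99 ± 0.14), a network-forming collagen of basement membranes, and Col1a1 (-0.37 ± 0.08), a chain of fibrillar type I collagen, fell, with a median of -0.30.

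Among genes related to each member by family or pathway, Pcolce was joined in its fall by the collagen cross-linking enzymes Loxl2 (-1.50 ± 0.26) and Loxl1 (-0.98 ± 0.20), which together made 3 of 20 procollagen processing and cross-linking genes. Of all tested genes, 0.576% passed as lower. Loxl2 was at 1.39 ± 0.22 CPM in controls and 0.495 ± 0.154 CPM in CAIA. Frem1 was the only one of 7 FRAS/FREM genes, and Fap the only one of 10 dipeptidyl peptidase family genes, that passed. The partner Frem2 was at -0.31 ± 0.15. Of 16 small leucine-rich proteoglycans tested, none passed. Outside the 4 described above, the lowest p-values among these belonged to Prelp (-0.43 ± 0.12), Epyc (-2.62 ± 0.77, at 0.309 CPM in controls) and Podn (-0.93 ± 0.28).

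None of 7 GABA, taurine and betaine transporter genes passed, and of 11 organic anion and cation transporter genes tested only Slco1c1 (-0.50 ± 0.07), a thyroid hormone transporter of brain capillaries and choroid plexus, fell. No gene in any of these lists rose.

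**Figure D4:**
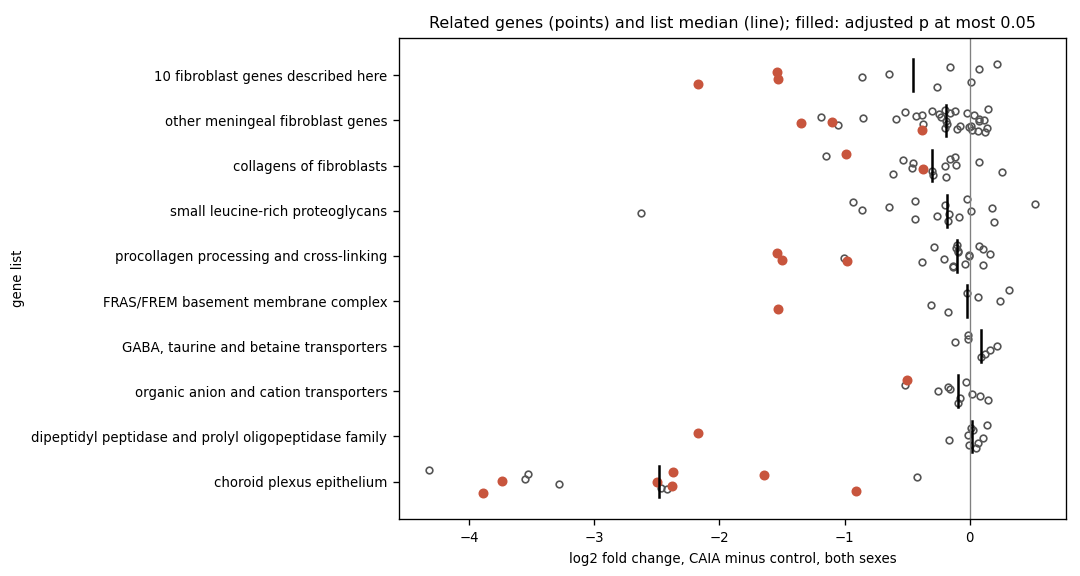
Log2 fold change of CAIA minus control over both sexes for the genes of each list (points) with the list median (vertical line). Filled points passed the adjusted p threshold of 0.05. The choroid plexus epithelium list, with a median of -2.48, has the lowest median of the lists plotted, and the medians of the others lie between -0.46 and 0.09.

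Border macrophage markers, which label the resident macrophages of the meninges and perivascular spaces, had positive values in 8 of 8 genes tested, and none passed. Their summed level was 29.6 to 33.0 CPM in female controls, 36.5 to 39.9 in female CAIA, 22.9 to 31.1 in male controls and 33.5 to 42.2 in male CAIA. Pineal markers reached 55.5 CPM in female CAIA and 59.9 CPM in male CAIA and as little as 1.70 CPM elsewhere in the CAIA groups, with up to 6 of 10 markers at 0 in a library. With the pineal level as a covariate, Fap (-2.12 ± 0.33), Pcolce (-1.53 ± 0.20) and Frem1 (-1.51 ± 0.22) passed over both sexes. In females alone none of the 10 genes passed in that fit, where 3 of all genes did. The adjusted p-values were 0.0553 for Fap and 0.0607 for Pcolce and Frem1.

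The genes whose library-to-library deviations from the group means were most like the mean deviation of the 10 genes were Cyth3 (Pearson r = 0.982), Taf4 (0.962), Zfp12 (0.961), Fkbp5 (0.957), Ace (0.953), Cebpb (0.948), Kif22 (0.948) and Aff1 (0.947). The correlations are over 11 libraries and were ranked among the 15546 genes whose mean reached 1 CPM, and are given as a description. Without male CAIA 2 they ranged from 0.859 to 0.964. None of these 8 genes passed for CAIA over both sexes. Ace, which encodes angiotensin-converting enzyme, had the lowest value at -1.43 ± 0.25 (adjusted p = 0.0570).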

How the data were processed

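RNA-seq of dissected lateral habenula gave 11 libraries. The deposited values are raw counts of reads per gene. Per the submitters' processing notes, the build was GRCm38 and the tools were HISAT2 2.0.5, featureCounts 1.5.0-p3 and cutadapt 1.9.1. Not given in the sources used here are the annotation release and the strand setting. Groups came from the labels. Libraries of a group differed by more than sampling noise (chi-square per degree of freedom 6.59 to 27.7). Each was counted as 1 replicate, although this spread does not show that they came from separate animals. Reads without molecular identifiers are not independent molecules.

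Counts were filtered by group (filterByExpr), scaled by TMM and fitted in edgeR 4.0.16 (R 4.3.3; robust quasi-likelihood, 4 group means, 7 residual degrees of freedom, 6 with the Ttr term). Benjamini-Hochberg adjustment ran over all 19619 genes, at a threshold of 0.05. The SE is the log2 fold change over the square root of F, so intervals include the spread between libraries. Log2 CPM used a prior count of 2. The fit was tested on simulated data. Exon lengths and coordinates came from GENCODE M21, which matched 54495 of the 54532 gene identifiers. The 10 genes, the related lists and the marker lists were chosen with earlier results of these data known. The result of 1 related list is not reported here. All 10 genes are named, with up to 4 genes of each related list by lowest p and the 8 genes most alike in deviation. Alternatives were DESeq2 1.42.0, limma-voom (limma 3.58.1), other filters and size factors, marker levels as covariates, replicate blocks and each library left out. Figures were drawn with matplotlib 3.10.9.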

Additional observations from a re-analysis of the deposited data

Results flagged for a closer look

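Among the 6 CAIA libraries, male CAIA 2 lay far above the other 5 for Lum (4.24 CPM), Fap (1.92 CPM), Pcolce (15.3 CPM), Frem1 (7.15 CPM) and Ptgds (791.5 CPM), by the gap to the nearest library relative to the whole range. These were 5 of 40 such checks, and chance alone marks about 1 group in 20. The summed choroid plexus marker level of that library was 2130 CPM, and its part in the values was not tested.

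The female log2 fold change of Slc6a13 minus the male was -0.90. All 3 female CAIA libraries were below the female control mean of 5.73 ± 0.94 CPM (n = 3), and all 3 male CAIA libraries were above the male control mean of 4.14 ± 0.85 CPM (n = 2). The interaction did not pass (edgeR, adjusted p = 0.978).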

How the results depend on the processing

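Over both sexes, Fap, Pcolce and Frem1 were called in 19 of 22 alternatives. The count of called genes among the 10 was 5 with no filter (Lum and Ogn added) and 0 with the Ttr level as a covariate. It was also 0 with the choroid plexus level (mean log2 CPM of the markers) as a covariate. In females it was 6 with no filter, 0 with the Ttr, the choroid plexus or the pineal level as a covariate, and 0 to 3 with each library left out. In males it was 2 with DESeq2, 3 with no filter and 0 to 2 with each library left out. For the sex difference it was 1 (Ptgds) with no filter. For the slope on Ttr it was 0 with limma-voom, 0 with the Ttr and pineal levels together and 0 to 1 with each library left out. All-gene counts moved too: over both sexes 117 genes passed, against 222 with DESeq2 and 470 with no filter. With the Ttr and with the choroid plexus level as covariates, respectively, 0 and 1 passed. In females 51 passed, against 452 with no filter, 0 with the Ttr or the choroid plexus level and 3 with the pineal level. In males 0 passed, against 71 with DESeq2 and 423 with no filter. For the sex difference 0 passed, against 316 with no filter. For the slope 23 passed, against 17 with limma-voom and 19 with the Ttr and pineal levels together. The cause was not tested.

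Pairing by replicate number was not evident: of 15 pairs with the same number, 1 had a correlation of deviations over 0.1 (-0.206 to 0.104). This check cannot decide on pairing, because each deviation is from the mean of only 2 or 3 libraries. With a replicate block, 3 of the 10 genes passed over both sexes (115 of all genes against 117), 3 in females, 0 in males and 0 for the slope on Ttr, where Pcolce stayed at 0.29 ± 0.06 with an adjusted p of 0.637 and 4 of all genes passed against 23. Under the block the log2 fold changes of Fmod (-0.044) and Ptgds (-0.010) over both sexes and of Dcn in males (-0.0032) changed sign, and the Slc6a13 slope was 0.0050.

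Of the values of single genes, 64 changed sign, 42 lost and 13 gained a call and 833 did neither. With Ttr and with choroid plexus level as covariates, respectively, fold changes over both sexes became 0.63 and 0.63 for Dcn, 0.57 and 0.62 for Lum, 0.76 and 0.79 for Ogn and 0.13 and 0.18 for Slc22a6. In females they became 0.65 and 0.57 for Dcn, 1.03 and 0.97 for Lum, 0.91 and 0.83 for Ogn, 0.99 and 0.89 for Fmod, 0.12 and 0.15 for Slc22a6 and 1.14 and 0.99 for Ptgds, and 0.0089 for Pcolce with Ttr. In males they became 0.10 and 0.26 for Lum, 0.61 and 0.75 for Ogn and 0.15 and 0.21 for Slc22a6. The female minus male difference became 0.41 and 0.19 for Pcolce and, with Ttr, 0.17 for Fap and 0.16 for Frem1.

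The Fmod value over both sexes was -0.028 with limma-voom, -0.013 with the pineal covariate and -0.029 in an additive model. The Slc6a13 slope was 0.0018 with a minimum of 1 CPM, 0.024 on the other choroid plexus markers and 0.0084 with pineal level added. With each library left out, values over both sexes ranged from -0.13 to 0.12 for Fmod, -0.31 to 0.039 for Slc22a6 and -0.15 to 0.17 for Ptgds. Male values ranged from -0.12 to 0.21 for Dcn, -0.57 to 0.057 for Ogn, -0.35 to 0.34 for Slc22a6 and -0.066 to 0.58 for Ptgds. Slopes ranged from -0.19 to 0.086 for Slc6a13, -0.15 to 0.093 for Slc22a6 and -0.040 to 0.29 for Ptgds. Likeness without male CAIA 2 was an alternative chosen after seeing the data. Leaving out a male control leaves 1 library there, taken to vary like the other groups. Fap had 10 to 16 counts per female CAIA library, which limits its precision most among the 10 genes.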
